A study of Mus musculus with 6 samples.

Results

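Bdh1, Acat1, Fgf21, Pdk4, Angptl4 and Slc16a1 are 6 genes of ketone body handling and of the hepatic switch from carbohydrate to fat, and their transcript values were compared here in the livers of mice fed 2 low-protein diets. They were taken as every probe set that the array's annotation assigns to exactly 1 gene symbol among the 6 names. This gave 11 probe sets of the 45037 tested, with 3 for Acat1, 2 each for Bdh1, Angptl4 and Slc16a1, and 1 each for Fgf21 and Pdk4. Of the 11, 10 ranged over more than 0.01 across the 6 arrays and are called varying below. The remaining 1, the Slc16a1 probe set 1446274_at, read 5.75 on every array and cannot show whether the mice differed there. Over all probe sets 7791 varied and 37246 held a value shared by the arrays.

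The mice were male BALB/cCrSlc, an inbred albino strain, 17 weeks old at sampling. Both groups ate low-protein purified AIN-93M feed for 10 weeks, with 10% casein as the protein in the diet 10C, and with 6% casein and 4% fish collagen peptide in the diet 6C+4CP. The casein reduction and the peptide came together and cannot be told apart. Each diet was given to 12 mice, and liver RNA of 3 of them, chosen for medium food efficiency, was hybridised to 1 Affymetrix array per mouse after 3 h without food in the morning, so replicates are separate mice. The design also names another group, which is not analysed here. Values are on a scale read as log2, whose base the sources used here do not give, so every fold below rests on that reading.

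When dietary carbohydrate is short, the liver oxidises fatty acids to acetyl-CoA and turns part of it into ketone bodies, which other organs burn. The fatty-acid-sensing receptor PPARa drives much of this programme and has been linked to Pdk4, Angptl4 and Fgf21 in particular. Pdk4 blocks the entry of pyruvate into the citrate cycle, Angptl4 and Fgf21 are secreted, and Bdh1 and Acat1 are mitochondrial enzymes of ketone body interconversion. Fgf21 is also known as a hormone of protein shortage, induced through the amino acid response factor ATF4.

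The samples read as liver, with hepatocyte markers such as Alb (14.23), Ttr (13.87 to 13.93) and Apoa1 (13.67 to 13.82) near 14.48, the highest value deposited. Ass1, also a hepatocyte marker, held a shared 6.72. Muscle, cholangiocyte and neutrophil markers all held shared values of at most 6.58, and of the adipocyte markers 1 of 5 varied. Single markers of other cell types had higher means. These were Dcn of stellate cells (10.86), Clec4g of sinusoidal endothelium (10.03), Alas2 of erythroid cells (9.64) and Cela1 of pancreatic acinar cells (9.40). Of the 8 Kupffer cell markers 6 varied, and 5 of these were lower in 6C+4CP, with overlap, and the linear sum of that list ran from 2240 to 3280 in 10C and from 1980 to 2890 in 6C+4CP. Of the B cell markers Ighm alone varied, lower without overlap (-0.66). In whole liver, fewer cells of a type and less RNA per cell cannot be told apart. The 3' minus 5' difference of the Gapdh control, which rises as RNA degrades, was 0.62 on the array of 6C+4CP replicate 2 and 0.18 to 0.31 on the others, and that of actin 1.69 against 1.15 to 1.27. That mouse had the highest Pdk4 and Angptl4. Over varying probe sets the array of 10C replicate 3 correlated less with those of its own diet (0.9715 and 0.9726) than with that of 6C+4CP replicate 2 (0.9853). Without 10C replicate 3 the differences of Fgf21, Pdk4, Angptl4, Bdh1, Acat1 and Slc16a1 were 0.93, 2.90, 0.37, 0.17, 0.11 and 0.56, and without 6C+4CP replicate 2 they were 0.83, 1.10, 0.11, 0.17, 0.10 and 0.55. The part of cell types and RNA quality in the results was not tested beyond this.

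All 6 genes had a higher mean in 6C+4CP, but none passed the test between the diets. The mean was higher in 10 of 10 varying probe sets, against 47.9% of all varying probe sets. In each of the 10 the highest value belonged to a 6C+4CP mouse and the lowest to a 10C mouse, against 34.4% of all varying probe sets. In 3 of the 10, those of Fgf21, 1 of Bdh1 and 1 of Angptl4, every 6C+4CP mouse lay above every 10C mouse, against 10.8% of all varying probe sets. Probe sets of a gene share their transcript and all 10 share the same 6 mice, so these counts are not independent observations. The 6 genes were chosen with earlier results of these data known, so the shares of all varying probe sets are no independent yardstick.

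Limma with Benjamini-Hochberg adjustment called 0 of the 11 probe sets at an adjusted p under 0.05 in the fit to all 45037 probe sets, where 109 (0.242%) were called. Of those 109, 103 hold a value shared by all arrays, whose differences lie in the last deposited decimals. In the limma fit to the 7791 varying probe sets alone, 0 (0.0%) were called at an adjusted p under 0.05, 1140 had an unadjusted p under 0.05, and 0 of the 10 were called. At an unadjusted p under 0.05 limma had 1 of the 11 in the fit to all probe sets, an Angptl4 probe set, and 2 of the 10 in the fit to varying ones, that probe set and Fgf21. Adjusted p over the 10 ran from 0.654 to 0.91 in the former limma fit and from 0.225 to 0.776 in the latter. The smallest p that an exact permutation of 3 against 3 mice allows is 0.1, which the 3 probe sets without overlap reached.

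**Figure D1:**
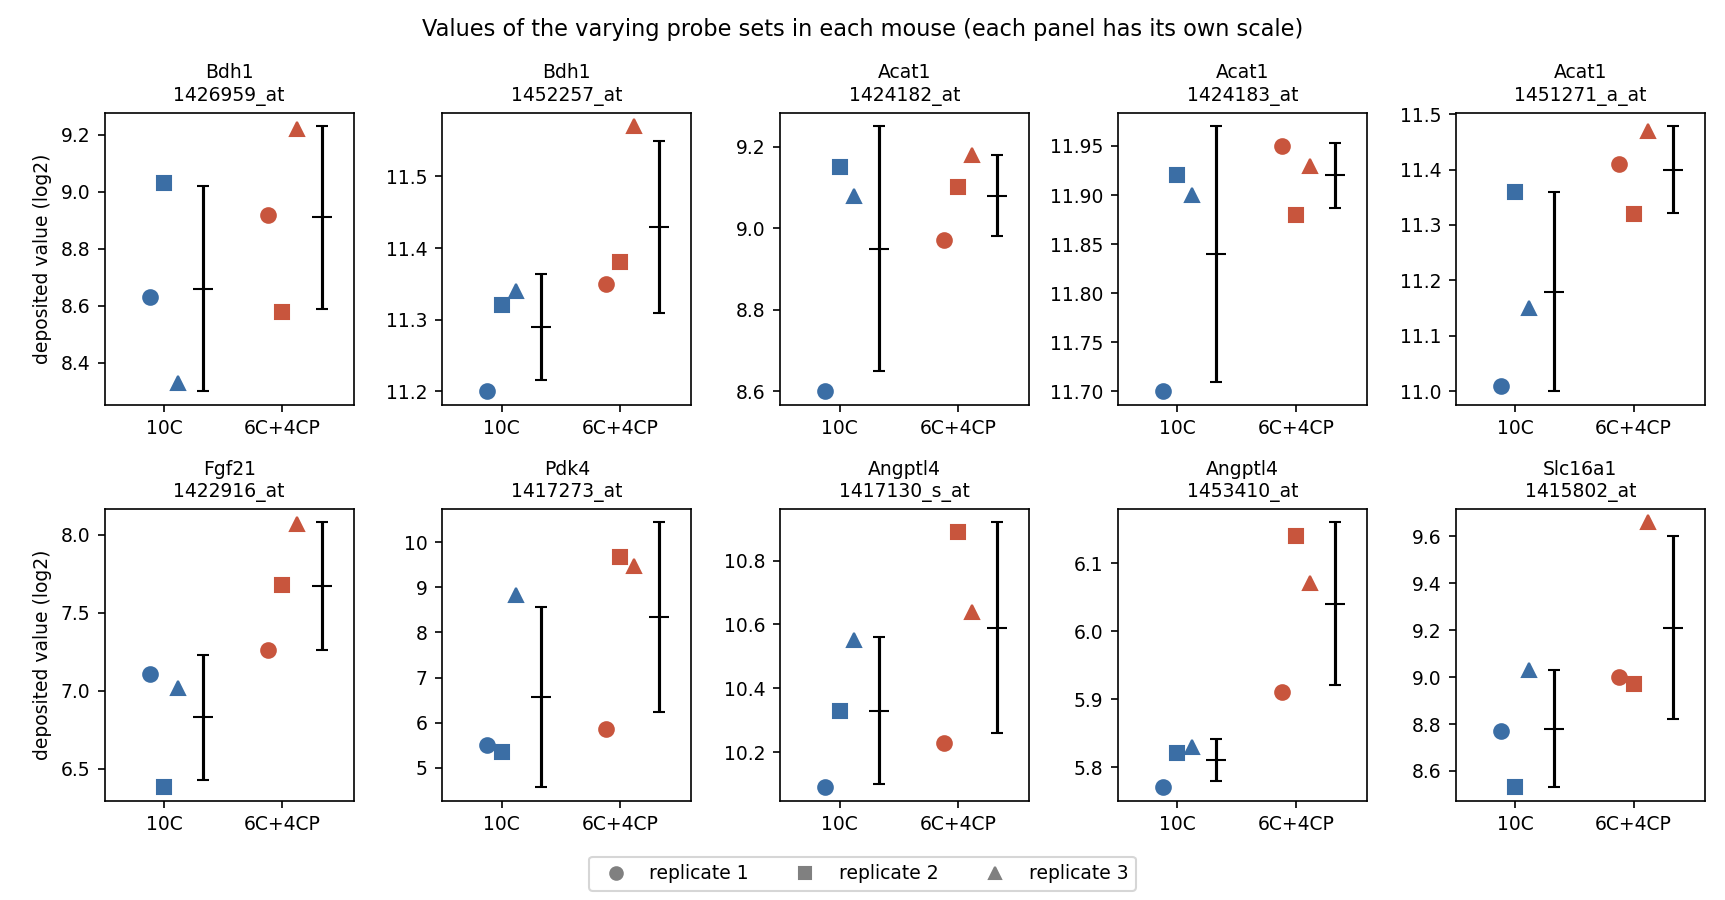
Deposited value (log2, vertical axis, own scale per panel) of the 10 varying probe sets in each mouse, by diet (10C blue, 6C+4CP red) and replicate number (marker shape), with the mean and SD of 3 mice as a black bar beside each diet. The highest point of every panel is a 6C+4CP mouse and the lowest a 10C mouse, and the diets do not overlap for Fgf21, Bdh1 1452257_at and Angptl4 1453410_at.

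Fgf21 encodes a hormone that the liver secretes in fasting and in protein shortage. Its probe set read 7.11, 6.38 and 7.02 on 10C and 7.26, 7.68 and 8.07 on 6C+4CP. Every 6C+4CP mouse was above every 10C mouse, with a gap of 0.15 between the closest pair. The means were 6.83 ± 0.40 (SD, n = 3) and 7.67 ± 0.41, a log2 difference of 0.84 (SE 0.32, 95% interval -0.05 to 1.72), or 1.78 times higher in 6C+4CP. The limma adjusted p was 0.704 over all probe sets and 0.278 over varying ones. Without 10C replicate 2, the lowest mouse, the difference was 0.61, and without 6C+4CP replicate 1, the lowest of its diet, it was 1.04.

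The stretch before the Fgf21 start is shown because it holds the only match among the motifs searched, printed in capitals, and the Pdk4 stretch is set beside it as that of the gene with the widest spread. Both run 5′ to 3′ on the gene's strand over the 250 bases before the RefSeq start, in GRCm38.p6.
Fgf21 promoter, chr7:45615491-45615740, minus strand: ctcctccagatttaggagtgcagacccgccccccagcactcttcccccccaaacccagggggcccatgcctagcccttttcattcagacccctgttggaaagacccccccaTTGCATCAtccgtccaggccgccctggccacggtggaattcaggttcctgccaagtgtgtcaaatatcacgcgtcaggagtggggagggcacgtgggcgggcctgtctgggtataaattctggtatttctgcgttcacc
Pdk4 promoter, chr6:5496279-5496528, minus strand: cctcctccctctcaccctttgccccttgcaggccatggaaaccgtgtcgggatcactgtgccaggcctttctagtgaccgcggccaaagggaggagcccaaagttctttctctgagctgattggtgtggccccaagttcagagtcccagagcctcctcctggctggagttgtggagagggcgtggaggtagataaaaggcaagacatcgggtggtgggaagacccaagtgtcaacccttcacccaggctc

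The capitals in the Fgf21 promoter, 139 to 132 bases before the start, are the reverse complement of TGATGCAA, a match to TGATGNAA, the core that ATF4 binds with C/EBP partners in amino acid response elements. TGATGNAA on either strand is held by 3.45% of the 32851 RefSeq promoters of that length. RefSeq gave 5 promoters for 4 of the 6 genes, 2 of them for Bdh1. None of the 5 holds AGGTCA, the hexamer of nuclear receptor sites (14.0% of all promoters), its direct repeat AGGTCANAGGTCA with up to 2 mismatches in the fixed bases (3.24%), or the cAMP element TGACGTCA (1.55%). Each search covered both strands, and the repeat contains the hexamer where it matches without mismatch.

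The receptors of FGF21 and the ATF4 targets had smaller differences than Fgf21. Of 8 listed genes of the hormone and its receptors 7 varied, 5 higher and 2 lower. Fgf21 was the 1 without overlap (14.3%), against 19.8% of all varying genes. Klb, the co-receptor through which FGF21 signals, differed by 0.06 (SE 0.039). Of 17 measured genes of the amino acid response 8 varied, 5 higher and 3 lower, with a median of 0.07, or 0.01 without 10C replicate 1. Of the 8, 50.0% did not overlap, 3 higher and 1 lower. Atf4 itself read 8.30 to 8.51 in 10C and 8.55 to 8.62 on 6C+4CP, differing by 0.16 (SE 0.063) without overlap. Ddit3, a stress-induced partner of C/EBP factors, differed by 0.07 (SE 0.027), also without overlap, while Cth, an enzyme of cysteine synthesis, differed by -0.27 (SE 0.098), lower without overlap. Asns, Trib3, Chac1 and Sesn2, further targets of ATF4, held shared values. Limma called 0 genes of either list.

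Pdk4 encodes the kinase that switches off the pyruvate dehydrogenase complex in fasting. Its probe set read 5.51, 5.35 and 8.83 on 10C and 5.87, 9.67 and 9.47 on 6C+4CP. The 6 mice fell into a low and a high set with nothing between 5.87 and 8.83, and each diet had mice in both sets, 1 high in 10C and 2 high in 6C+4CP. The values of the low set, 5.35 to 5.87, lie below the array median of 6.31, and whether they exceed background is not known. The size of the difference and of the SD below rests partly on them. The means were 6.57 ± 2.0 (SD, n = 3) and 8.34 ± 2.1, a log2 difference of 1.77 (SE 1.6, 95% interval -2.74 to 6.28), with a limma adjusted p of 0.852 over all probe sets and 0.65 over varying ones. Within diets Pdk4 had the 4th widest SD of the 7791 varying probe sets. The difference rested on single mice, being 3.01 without 6C+4CP replicate 1 and 1.10 when replicate 2 of that diet was left out.

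The same 3 mice, 10C replicate 3 and 6C+4CP replicates 2 and 3, were also the 3 highest in 513 of the 7791 varying probe sets (6.58%). Among the varying genes of the pathway lists other than Pdk4 they were the 3 highest in 24 of 124 (19.4%), among them Angptl4. The former share counts probe sets, the latter genes at their varying probe set of highest mean. The lists were also chosen with earlier results of these data known, so the former share is no yardstick for the latter. These counts take ranks alone, whatever the gap, so they do not mean a low and a high set like those of Pdk4. Mt1, a counted gene induced by glucocorticoids, read 9.87 in 10C replicate 3 and 7.29 to 7.83 in the other mice. By list the 24 were 11 of 31 PPARa targets, 5 of 9 genes induced by glucocorticoids, 2 of 16 other fasting and feeding genes and 2 of 6 monocarboxylate transporters. They were 1 of 6 ketone body genes, 1 of 9 pyruvate dehydrogenase genes, 1 of 6 lipoprotein lipase genes and 1 of 8 ATF4 targets. None of 7 FGF21 genes, 13 regulators of the fasting response or 13 circadian clock genes had these 3 highest mice. Among the genes induced by glucocorticoids Fkbp5, Tsc22d3, Sgk1 and Lcn2 did not have them either. The following 3 genes were taken from those that did. Cyp4a14, a fatty acid hydroxylase, read 4.76, 5.57 and 7.91 on 10C and 7.66, 9.79 and 9.35 on 6C+4CP. Its values 4.76, the lowest deposited, and 5.57 lie below the array median of 6.31. Tat, a tyrosine-degrading enzyme counted among the other fasting and feeding genes, read 10.71, 11.46 and 11.92 on 10C and 11.11, 12.12 and 12.28 on 6C+4CP. Zbtb16, a transcription factor that responds to glucocorticoids, read 7.03, 7.08 and 8.0 on 10C and 7.90, 8.36 and 8.11 on 6C+4CP.

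**Figure D2:**
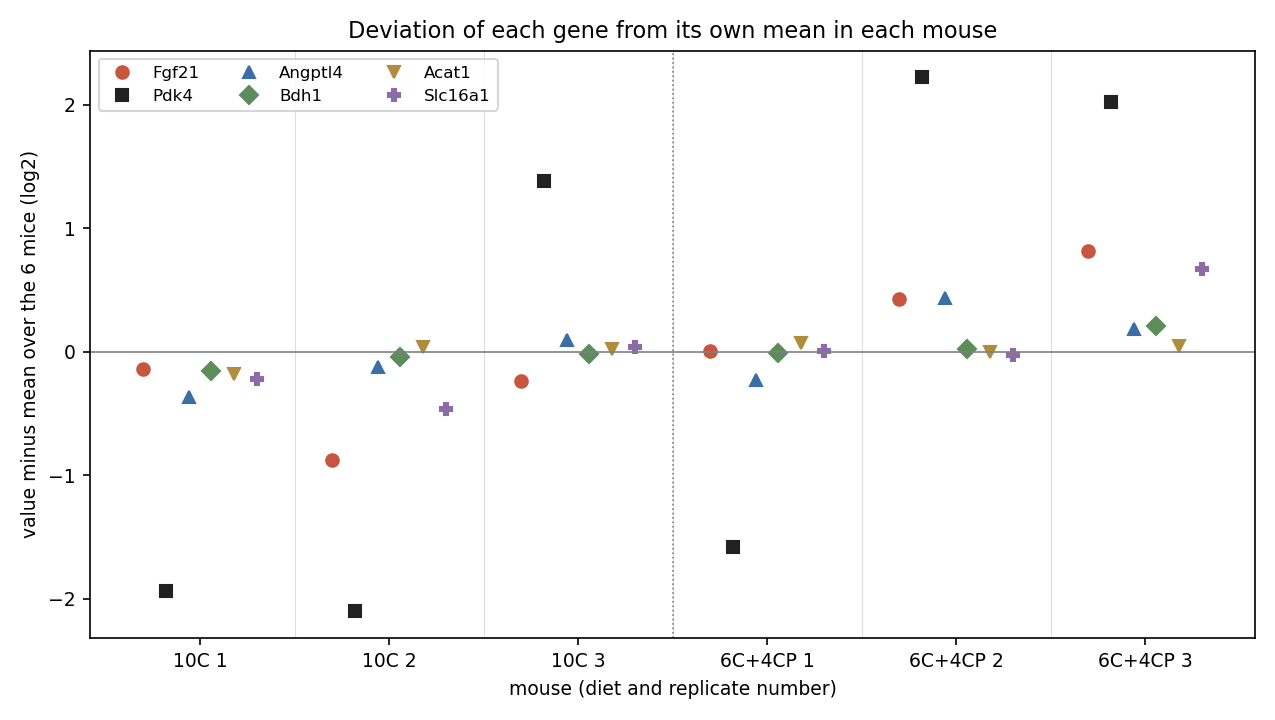
Value minus the gene's own mean over the 6 mice (log2, vertical axis) for the brightest varying probe set of each of the 6 genes, by mouse (horizontal axis). Pdk4 lies far above its mean in 10C replicate 3 (8.83) and 6C+4CP replicates 2 and 3 (9.67 and 9.47) and far below it in the other mice, while Fgf21 is highest in 6C+4CP replicate 3 (8.07) and lowest in 10C replicate 2 (6.38).

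Of 13 measured genes of pyruvate dehydrogenase and its regulators 10 varied, 5 higher and 5 lower, with a median of 0.01, and the split was 7 and 3 without 10C replicate 1. Pdhb, a subunit of the first enzyme of the complex, read 11.02, 11.52 and 10.50 on 10C and 10.30, 9.98 and 10.33 on 6C+4CP, so that the diets differed by -0.81 (SE 0.31) without overlap. Pdp2, a phosphatase that reverses the action of the kinase, read 6.98, 6.98 and 7.63 on 10C and 7.51, 8.01 and 7.78 on 6C+4CP, so that the diets differed by 0.57 (SE 0.26) with overlap. Pdp2 was also highest in the 3 mice with high Pdk4. Dlat, which carries the second catalytic step, differed by 0.16 (SE 0.078) without overlap. Of the 10 varying genes 20.0% did not overlap, against 19.8% of all varying genes. Of the other kinases Pdk2 and Pdk3 held shared values and Pdk1 varied, and limma called 0 of the 13.

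Angptl4 encodes a secreted inhibitor of lipoprotein lipase. Its brighter probe set, 1417130_s_at, read 10.09, 10.33 and 10.55 on 10C and 10.23, 10.89 and 10.64 on 6C+4CP. The diets overlapped, since 6C+4CP replicate 1 was below 2 of the 10C mice. The difference was 0.26 (SE 0.23, 95% interval -0.36 to 0.88), or 1.20 times higher, being 0.44 without 6C+4CP replicate 1 and 0.11 when replicate 2 of that diet was left out. The limma adjusted p was 0.852 over all probe sets and 0.626 over varying ones. The second, 1453410_at, read 5.77, 5.82 and 5.83 on 10C and 5.91, 6.14 and 6.07 on 6C+4CP. All 6 values lie below the array median of 6.31, and whether they exceed background is not known. It did not overlap, with a difference of 0.23 (SE 0.068, 95% interval 0.05 to 0.42) and a limma adjusted p of 0.654 over all probe sets and 0.225 over varying ones. Both probe sets were highest in 6C+4CP replicate 2 and lowest in 10C replicate 1.

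Of 10 measured genes of lipoprotein lipase and its regulators 6 varied, 3 higher and 3 lower, and limma called 0. That split held without 6C+4CP replicate 3, was 5 and 1 without 6C+4CP replicate 2, and was 4 and 2 without any 1 of the other mice. Lipg, an endothelial lipase, read 6.09, 6.15 and 6.61 on 10C and 6.81, 6.67 and 7.39 on 6C+4CP, so that the diets differed by 0.67 (SE 0.27) without overlap. It was the 1 gene of the 6 without overlap (16.7%), against 19.8% of all varying genes. Angptl8, a partner of the ANGPTL proteins that is high after feeding, read 8.79, 7.61 and 6.91 on 10C and 8.20, 6.51 and 7.67 on 6C+4CP, so that the diets differed by -0.31 (SE 0.73). Angptl8 was highest in the replicate 1 mouse of each diet, where Angptl4 and Pdk4 were low. It was lowest in 10C replicate 3 and 6C+4CP replicate 2, where Pdk4 was high. The other mice did not follow this order. Angptl8 read 7.67 in 6C+4CP replicate 3, with Pdk4 at 9.47, and 7.61 in 10C replicate 2, with Pdk4 at 5.35. Lpl itself held a shared value.

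Bdh1 and Acat1, the enzymes of ketone body interconversion, had small differences on every probe set. Bdh1 makes 3-hydroxybutyrate from acetoacetate. Its brighter probe set, 1452257_at, read 11.20, 11.32 and 11.34 on 10C and 11.35, 11.38 and 11.57 on 6C+4CP. The diets were parted by 0.01, less than the spread within either diet. The difference was 0.15 (SE 0.079, 95% interval -0.07 to 0.36), or 1.11 times higher, with a limma adjusted p of 0.775 over all probe sets and 0.455 over varying ones, and it was 0.08 without 6C+4CP replicate 3. The other Bdh1 probe set, 1426959_at, read 8.63, 9.03 and 8.33 on 10C and 8.92, 8.58 and 9.22 on 6C+4CP, with overlap and a difference of 0.25 (SE 0.27).

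Acat1 is the acetoacetyl-CoA thiolase that joins acetyl-CoA units on the way to ketone bodies. Its brightest probe set, 1424183_at, read 11.70, 11.92 and 11.90 on 10C and 11.95, 11.88 and 11.93 on 6C+4CP. Apart from 10C replicate 1 the mice lay between 11.88 and 11.95. The difference was 0.08 (SE 0.074, 95% interval -0.12 to 0.28) and 0.01 without that mouse, with a limma adjusted p of 0.852 over all probe sets and 0.684 over varying ones. Probe set 1451271_a_at differed by 0.23 (SE 0.11, 95% interval -0.08 to 0.53) and 1424182_at by 0.14 (SE 0.18), both with overlap. 10C replicate 1 was the lowest mouse on all 3 Acat1 probe sets. Without it the mean of 1424182_at was no longer higher in 6C+4CP, so 9 of the 10 varying probe sets kept their direction.

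Of 9 measured genes of the ketone body list 6 varied, 4 higher and 2 lower, with a median difference of 0.07, or 0.03 when either 10C replicate 1 or 6C+4CP replicate 3 was left out. Bdh2, a cytosolic relative of Bdh1, differed by 0.12 (SE 0.076). Acaa2, a mitochondrial thiolase of fatty acid oxidation, differed by 0.06 (SE 0.11), and Aacs, which returns acetoacetate to lipid synthesis, by -0.37 (SE 0.67). Oxct1, which lets tissues other than liver burn ketone bodies, read 6.5 to 6.7. Limma called 0 of the 9, and in 1 of the 6, Bdh1, the diets did not overlap, against 19.8% of all varying genes.

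Slc16a1 encodes the monocarboxylate transporter MCT1, which moves lactate, pyruvate and ketone bodies across the cell membrane. Its varying probe set, 1415802_at, read 8.77, 8.53 and 9.03 on 10C and 9.0, 8.97 and 9.66 on 6C+4CP. 6C+4CP replicate 3 stood above the rest, while the other 2 mice of that diet lay just below 10C replicate 3. The difference was 0.43 (SE 0.26, 95% interval -0.28 to 1.15), or 1.35 times higher, and 0.21 without 6C+4CP replicate 3. The limma adjusted p was 0.822 over all probe sets and 0.466 over varying ones.

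Of 14 measured monocarboxylate transporters and partners 6 varied, 4 higher and 2 lower, and limma called 0. Of the 6, 33.3% did not overlap, 1 higher and 1 lower, against 19.8% of all varying genes. Slc16a7, which encodes the relative MCT2, read 8.54, 8.25 and 8.80 on 10C and 8.94, 9.07 and 9.12 on 6C+4CP, so that the diets differed by 0.51 (SE 0.16) without overlap. Slc16a10, an aromatic amino acid transporter, went the other way without overlap, from 8.39, 8.46 and 8.69 in 10C to 7.82, 8.12 and 7.92 in 6C+4CP (-0.56, SE 0.13). The limma adjusted p over varying probe sets was 0.219 for Slc16a7 and 0.143 for Slc16a10. Bsg, the chaperone that brings Slc16a1 protein to the membrane, held a shared value.

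**Figure D3:**
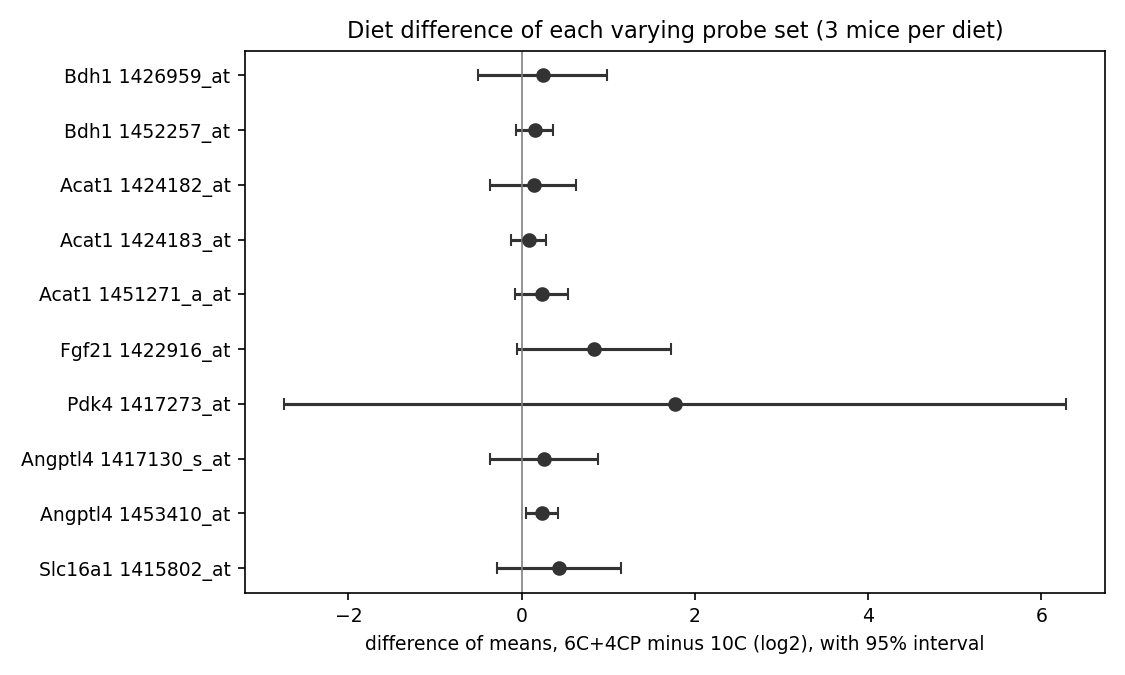
Difference of means, 6C+4CP minus 10C (log2, horizontal axis), with its 95% interval from the limma fit to all probe sets, for the 10 varying probe sets (3 mice per diet). Every point lies above 0, the interval of Angptl4 1453410_at (0.05 to 0.42) excludes 0 before adjustment, and that of Pdk4 (-2.74 to 6.28) is the widest.

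Each gene's difference was set beside those of regulators and of other genes of the fasting response. Over all 5057 varying genes 48.1% were higher in 6C+4CP, the median difference was 0.00, 552 were higher and 447 lower without overlap, and limma called 0 genes of the 11 lists in either fit. At an unadjusted limma p under 0.05 over varying probe sets the count was 18 among PPARa targets, 6 among regulators of the fasting response, 3 among other fasting and feeding genes, and from 0 to 2 in each remaining list, against 726 of the 5057 varying genes. The 6 genes are counted in the lists of their own pathways. Genes and lists were chosen with earlier results of these data known, so counts over all varying genes are no independent yardstick. Of 13 varying regulators of the fasting response 10 were higher and 3 lower, with a median of 0.12 (0.08 without 6C+4CP replicate 2), and 5 did not overlap, all higher. They were Ppara, the receptor PPARa (0.39, SE 0.094), Sirt1, a deacetylase (0.49, SE 0.13), Hnf4a, a hepatocyte transcription factor (0.40, SE 0.13), Ppargc1b, a coactivator (0.27, SE 0.087), and Klf15, a factor of the fasting liver (0.15, SE 0.042). Foxo3 was lower with overlap (-0.28, SE 0.12) and is counted among the 6 regulators at an unadjusted limma p under 0.05. Foxo1, which drives Pdk4 transcription in fasting, differed by -0.01 (SE 0.20). Nr3c1, the glucocorticoid receptor, differed by 0.07 (SE 0.069).

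The list of PPARa targets was likewise chosen with earlier results of these data known, and all 31 of its measured genes varied. Its counts are therefore no independent evidence beside the 552 of 5057 varying genes that were higher without overlap. PPARa targets other than the 6 genes had the highest median of the lists, 0.59, with 30 of 31 varying genes higher and 14 of them without overlap. With 1 mouse left out the median ran from 0.56, without 10C replicate 1 or 6C+4CP replicate 2, to 0.98, without 10C replicate 3. The split was 28 higher and 3 lower without 10C replicate 1. The 5 with the smallest p were Hadhb, the thiolase subunit of long-chain fatty acid oxidation (0.59, SE 0.090), Cpt1a, which admits fatty acids to mitochondria (0.58, SE 0.14), Slc22a5, a carnitine transporter (1.77, SE 0.44), Slc25a20, the mitochondrial carnitine carrier (0.97, SE 0.24), and Vnn1, a pantetheinase (2.80, SE 0.73). The differences of Pdk4, Fgf21 and Angptl4 were 1.77, 0.84 and 0.26. Other fasting and feeding genes had 7 higher and 9 lower of 16, with a median of -0.61. Leaving out 10C replicate 3 gave -0.31, 6C+4CP replicate 2 gave -0.37, and 6C+4CP replicate 1 gave -0.15. This list mixes genes raised in fasting with genes raised in feeding, so its split and median give no direction in terms of fasting. Of the 16, 1 was higher without overlap, Me1 (1.29, SE 0.61), and 3 were lower without overlap. Fasn, the fatty acid synthase, read 11.00, 11.49 and 8.59 on 10C and 8.16, 7.93 and 7.89 on 6C+4CP, with 10C replicate 3, the 10C mouse with high Pdk4, far below the other 10C mice. Genes induced by glucocorticoids had 5 higher and 4 lower of 9, a split that turned to 4 and 5 when 10C replicate 1 or 2, or else 6C+4CP replicate 3, was omitted. Clock genes had 7 higher and 6 lower of 13, and 9 and 4 when 10C replicate 2, 10C replicate 3 or 6C+4CP replicate 3 was omitted. Dbp, a clock output gene, read 10.46, 10.23 and 7.69 on 10C and 11.20, 9.57 and 10.76 on 6C+4CP, with 10C replicate 3 lowest.

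**Figure D4:**
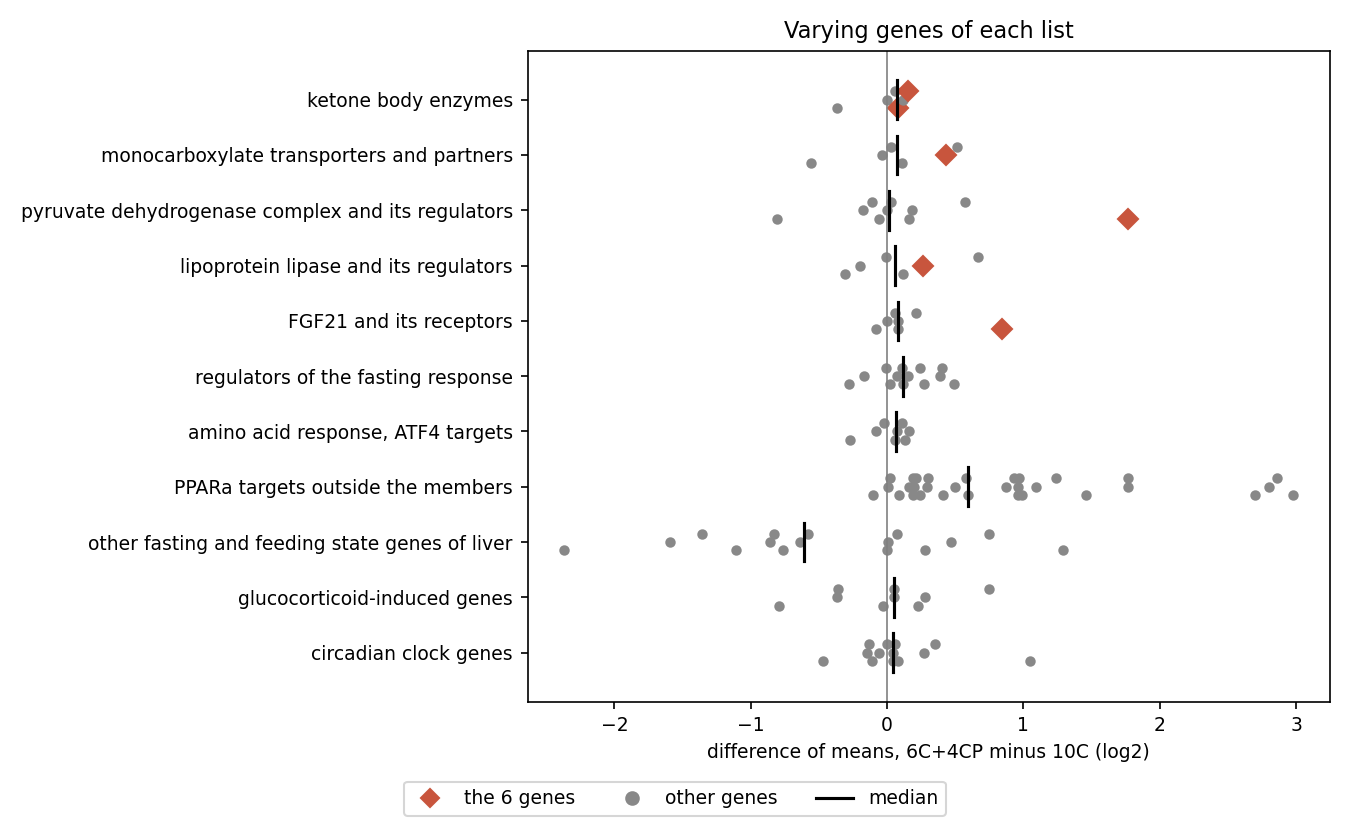
Difference of means, 6C+4CP minus 10C (log2, horizontal axis), of every varying gene of the 11 lists (rows), with the 6 genes as red diamonds, other genes as grey points and the list median as a black bar. Pdk4 (1.77) and Fgf21 (0.84) lie beyond the other genes of their lists, Bdh1 (0.15) is the highest of its list by a small step, Acat1, Angptl4 and Slc16a1 lie among theirs, and PPARa targets have the highest median (0.59).

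For each of the 6 genes the varying genes whose values ran most nearly with it over the 6 arrays were sought among 4857 named genes, by Pearson's r given as a description. For Fgf21 these were Pdpk1 (0.991), Ets2 (0.989) and Rhob (0.976), and the most opposed were Ndufaf3 (-0.986) and Rab17 (-0.984). For Pdk4 they were Synrg (0.983), Bcl2l11 (0.974) and Chrng (0.971), each ranging far less than Pdk4, against Frg1 (-0.992) and Iars (-0.991). Angptl4 ran most nearly with Taf13 (0.983), Gadd45g (0.979) and Aftph (0.975), against Commd3 (-0.973) and Ppil3 (-0.973). Gadd45g, a stress-response gene, read 6.19, 7.15 and 7.71 on 10C and 6.87, 8.62 and 7.60 on 6C+4CP. For Bdh1 the nearest were Ttpal (0.991), Bcas1os2 (0.978) and Clp1 (0.970), against Rps3 (-0.985) and Bbip1 (-0.983). For Acat1 they were Trim26 (0.966), Ndufs4 (0.964) and Phb2 (0.957), against Dcn (-0.979) and Herc1 (-0.974). For Slc16a1 they were Arhgef3 (0.991), Oga (0.987) and Fam160b1 (0.972), against Htatsf1 (-0.995) and Prr13 (-0.987). No 2 of the 6 genes shared a nearest gene.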

How the data were processed

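Total liver RNA of 6 mice was labelled with an Affymetrix 3' IVT Express kit from 100 ng, per the labels' protocols. The authors' deposited values, read as log2, were used unchanged. The submitters' processing notes name R 2.7.2, with the background correction, probe summary and log base not given in the sources used here. Values run from 4.76 to 14.48 with array medians of 6.31. Of 45101 probe sets 64 controls were left out. The platform annotation gave 1 symbol for 34945 probe sets, several for 932 (not used) and none for 9160, and the Entrez identifiers of all 6 genes led to the same symbols in RefSeq. No signal over background is given, so precision rests on 3 arrays per diet.

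Differences, SE and intervals come from lmFit and eBayes without covariates (limma 3.58.1, R 4.3.3) over all 45037 probe sets, with Benjamini-Hochberg adjustment, and were repeated on varying probe sets. The 37246 shared-value probe sets thus enter the reported SE, intervals and adjusted p over all probe sets. On varying probe sets alone the SE of each of the 10 was smaller. For Fgf21 it was 0.29 rather than 0.32, with an unadjusted limma p of 0.0309 rather than 0.0586. The fit was tested on simulated data. A gene stands for its varying probe set of highest mean. Exact permutation tests were two-sided. Motif searches used Python 3.11.15. Genes were named by list (up to 5 varying genes by smallest p) and by likeness (3 highest and 2 lowest r, unnamed predicted genes passed over). Cyp4a14, Tat, Fkbp5, Lcn2, Pdk1, Pdk2, Pdk3, Bsg, Oxct1, Lpl, Foxo1, Nr3c1, Asns, Trib3, Chac1 and Sesn2 were singled out after their values were seen. So were Foxo3, Ass1, Dcn, Clec4g, Alas2 and Cela1. The 6 genes and the lists were chosen with earlier results of these data known. Alternatives are given in the closing section.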

Additional observations from a re-analysis of the deposited data

How the results depend on the processing

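The 6 genes kept their direction after quantile normalization, with array weights, with each mouse left out, and with the mean or another of a gene's varying probe sets. Acat1 1424182_at, which was no longer higher without 10C replicate 1, is the exception among probe sets. The replicate block, median centring by a constant, fits to varying or brighter probe sets and the intensity trend leave a difference of means as it is, apart from shifts common to an array, so they do not bear on direction. No probe set of the 6 genes was called wherever limma was run, including at an adjusted p under 0.1. Where few or no probe sets were called at all, this says nothing about stability. Whether replicate numbers pair the mice is not settled. Deviations of same-numbered mice from their diet means correlated at 0.477, -0.089 and 0.085 across varying probe sets, and those of differently numbered mice at -0.573 to 0.401. With the replicate block the SE fell for Slc16a1 (0.26 to 0.11), Angptl4 (0.23 to 0.14), Bdh1 (0.079 to 0.047) and Pdk4 (1.6 to 1.2). It rose for Fgf21 (0.32 to 0.34) and Acat1 (0.074 to 0.085). The replicate block called 3 probe sets over the whole table. Against 109 as reported, that count was 109 with array weights, 114 at an adjusted p under 0.1, 1 after quantile normalization, and 0 after median centring, on varying probe sets, on brighter probe sets or with the intensity trend. It ran from 285 to 398 with 1 mouse left out, of which 4 to 13 were varying probe sets. Of the 10 varying probe sets, 3 were higher without overlap on the deposited values (10.8% of all varying probe sets) and 5 after quantile normalization (11.2%). With 1 mouse left out the count ran from 3 to 5, against 14.0% to 17.3% of all varying probe sets, and it was 5 without 10C replicate 3, 6C+4CP replicate 1 or 6C+4CP replicate 2. These overlap counts were added after seeing the data. With 3 mice per diet, and low and high mice in both diets, the interval of Pdk4 spans both directions. No measure of signal over background is given. The shared value of the second Slc16a1 probe set says nothing about the mice.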
